A study of Mus musculus with 8 samples.

Results

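The *Ube3a* imprinted domain of mouse chromosome 7 was followed in lumbar spinal cord RNA through 8 genes taken by name from the deposited count table, *Ube3a*, *Gm44559*, *Snhg14*, *Snrpn*, *Ndn*, *Magel2*, *Mkrn3* and *Peg12*, out of 55291 genes listed there. All 8 passed the filter on low counts. The antisense gene *Gm44559* was chosen by its counts, which differed between the genotypes in these same mice. Its difference is therefore given as a description with no test. The other 7 genes were named for their place in the domain. Tissue was from 8 male C57BL/6 mice (C57BL/6J in the growth protocol) that all carried the SOD1G93A transgene, a mutant human superoxide dismutase that causes motor neuron disease. Every mouse was *Cx3cr1* Cre/+. The 4 *Ager*-deleted mice (E1776, E5231, E5248, E5568) were in addition *Ager* fl/fl, and the 4 Cre-expressing controls (labelled E5386, E5642, E6578, E6732) were *Ager* +/+. The Cre was tamoxifen-inducible and both groups received tamoxifen. The labels place tamoxifen at 12 weeks and the age of the mice at 120 days, whereas the study's text describes this tissue as end-stage. *Ager* encodes RAGE, and its deletion was confined by design to *Cx3cr1*-expressing cells, of which microglia are the main type in the cord, while RNA came from the whole lumbar cord.

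Imprinted genes are expressed from only 1 parental copy. In neurons *Ube3a*, a ubiquitin ligase lost in Angelman syndrome, is expressed from the maternal chromosome, and the paternal copy is held silent by a long antisense transcript that starts at *Snrpn* and runs through *Snhg14* into *Ube3a*. In most other cells *Ube3a* is expressed from both copies. *Snrpn*, *Ndn*, *Magel2*, *Mkrn3* and *Peg12* are expressed from the paternal chromosome. Loss of the human counterparts of *Snrpn*, *Ndn*, *Magel2* and *Mkrn3* is linked to Prader-Willi syndrome. The counts do not separate the parental copies.

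*Gm44559* (ENSMUSG00000108943.1) is a 1-exon transcript model of 1012 bp at chr7:59262923-59263934 of GRCm38 on the minus strand. It is of the class TEC, models that the annotation holds as still to be tested by experiment. It lies wholly in an intron of *Ube3a* (chr7:59228750-59311536, plus strand), 15381 bp and 8012 bp from the nearest *Ube3a* exons to its left and right. *Snhg14* (chr7:59307924-59975759, minus strand) overlaps the 3' end of *Ube3a* by 3613 bp, of which 1803 bp is exon on both strands, and its annotated end is 44.0 kb from *Gm44559*. The first 300 bases of the *Gm44559* transcript (chr7:59263635-59263934, minus strand, GRCm38) are shown because the genotype difference was in reads on this model. Capitals mark AATAAA, the letters of the common polyadenylation signal, and the last pair of matches overlaps.
Gm44559: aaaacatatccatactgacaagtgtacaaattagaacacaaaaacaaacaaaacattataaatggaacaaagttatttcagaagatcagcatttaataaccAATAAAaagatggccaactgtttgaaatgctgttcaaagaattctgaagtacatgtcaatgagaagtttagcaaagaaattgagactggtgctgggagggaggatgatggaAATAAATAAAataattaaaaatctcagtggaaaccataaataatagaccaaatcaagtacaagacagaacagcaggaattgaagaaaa

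The stretch held 47.7% A, against a median of 27.3% over the same window of 3189 TEC transcripts, of which 7 (0.220%) had a higher share. AATAAA occurred 3 times in it and 5 times in the whole transcript on the transcribed strand, and 18.8% of the TEC windows had at least 1 match (37.7% when both strands were searched). The longest run of A in the transcript was 5 bases. A match is a description of the letters and not of a used site.

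RefSeq promoter windows (GRCm38.p6, 250 bases before to 50 after each start) were found for 7 of the 8 genes, all but *Gm44559*. The windows of *Ube3a* (chr7:59228500-59228799, plus strand), of the most distant start shared by *Snrpn* and *Snhg14* (chr7:60450128-60450427, minus strand) and of the *Snrpn* start nearest the gene body (chr7:60005150-60005449, minus strand) are shown to set the sense promoter beside starts of the antisense transcript. Capitals mark CGCATGCG, which matches GCATGCG once on each strand, in overlap. This motif was chosen after the windows had been read.
Ube3a: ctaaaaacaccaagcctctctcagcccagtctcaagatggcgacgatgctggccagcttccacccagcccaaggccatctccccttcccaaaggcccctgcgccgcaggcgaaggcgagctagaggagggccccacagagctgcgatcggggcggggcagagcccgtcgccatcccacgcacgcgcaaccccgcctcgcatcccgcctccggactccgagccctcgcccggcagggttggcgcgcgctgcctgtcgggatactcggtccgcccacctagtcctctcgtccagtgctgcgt
Snhg14 and Snrpn, distant: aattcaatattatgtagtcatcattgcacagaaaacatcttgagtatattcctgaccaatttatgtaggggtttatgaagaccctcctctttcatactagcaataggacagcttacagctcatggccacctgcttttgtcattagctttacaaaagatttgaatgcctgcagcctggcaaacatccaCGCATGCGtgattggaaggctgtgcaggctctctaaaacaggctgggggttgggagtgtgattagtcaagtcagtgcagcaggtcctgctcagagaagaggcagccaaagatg
Snrpn, near: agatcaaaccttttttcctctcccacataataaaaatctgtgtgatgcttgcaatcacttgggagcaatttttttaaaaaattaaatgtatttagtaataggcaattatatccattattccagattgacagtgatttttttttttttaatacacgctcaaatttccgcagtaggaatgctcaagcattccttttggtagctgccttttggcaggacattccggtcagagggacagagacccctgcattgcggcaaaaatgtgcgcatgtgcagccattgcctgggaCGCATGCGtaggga

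The *Ube3a* window was 69.0% G or C with 29 CpG, whereas the distant *Snrpn* window was 45.0% G or C with 2 CpG and the near one was 40.3% with 7 CpG. GCATGCG on either strand was present in 5 of the 9 windows of the 8 genes, those of *Snrpn*, *Snhg14* and *Ndn*, and in 3.60% of 32544 RefSeq windows. The 3 distant *Snrpn* windows, with starts at 60450128, 60140176 and 60047929, were 84.1% to 88.4% identical to each other, so they are near copies and not separate occurrences. *Ube3a*, *Magel2*, *Mkrn3* and *Peg12* windows held no match.

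Total counts on genes ranged from 31148047 to 40324897 per mouse, where 3 counts of a gene equal 0.0729 to 0.0975 CPM (counts scaled to library size after TMM normalization). No 2 mice shared a library (lowest chi-square per degree of freedom 15.7 over 28 pairs). All 10 spinal cord markers and all 14 neuronal markers were detected in every mouse. Several libraries stood apart. Skeletal muscle markers summed to 1296 CPM in control E5386 and 1983 CPM in control E5642, against 81.6 to 108 CPM in the other 6 mice, and 3 of the 19 tested muscle markers were called lower in *Ager*-deleted mice by the exact test of edgeR (0.0616% of 19470 genes), with 18 at an unadjusted p under 0.05 (4.26% of genes). Albumin (*Alb*), a liver gene, was at 452 CPM in control E6732 and at 0.0620 to 0.762 CPM in the others. *Ager*-deleted mouse E5248 had the lowest microglial sum (1655 CPM, against 2011 to 3040 CPM in the other 7) and the highest neuronal sum (6812 CPM, against 5202 to 6736 CPM). *Ager*, the targeted gene, was at 0.889 to 1.51 CPM in *Ager*-deleted mice and 1.53 to 2.41 CPM in controls, a log2 fold change of -0.81 (SE 0.22, edgeR exact test, adjusted p = 0.252). Throughout, fold changes are *Ager*-deleted over control on the log2 scale, and values per mouse are in the order E1776, E5231, E5248 and E5568, then E5386, E5642, E6578 and E6732.

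The 8 genes differed widely in level. Per kb of exon, *Snrpn* was highest at 134 CPM per kb (121 to 147 across the 8 mice), followed by *Ndn* at 36.5 (30.2 to 44.9) and *Ube3a* at 3.57 (2.49 to 4.55). *Snhg14* stood at 1.81 CPM per kb (1.18 to 2.48) and *Magel2* at 1.33 (1.06 to 1.52), with overlapping ranges. *Mkrn3* at 0.638 CPM per kb (0.485 to 0.902) and *Gm44559* at 0.604 (0.226 to 1.06) also overlapped, and *Peg12* was lowest at 0.132 (0.0518 to 0.222). The other neighbours in this order did not overlap, although *Ube3a* and *Snhg14*, and *Gm44559* and *Peg12*, came close to each other. Exon lengths are those of all annotated exons merged (20626 bp for *Ube3a*, 26093 bp for *Snhg14*), so the level of a gene that uses few of them is understated.

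**Figure D1:**
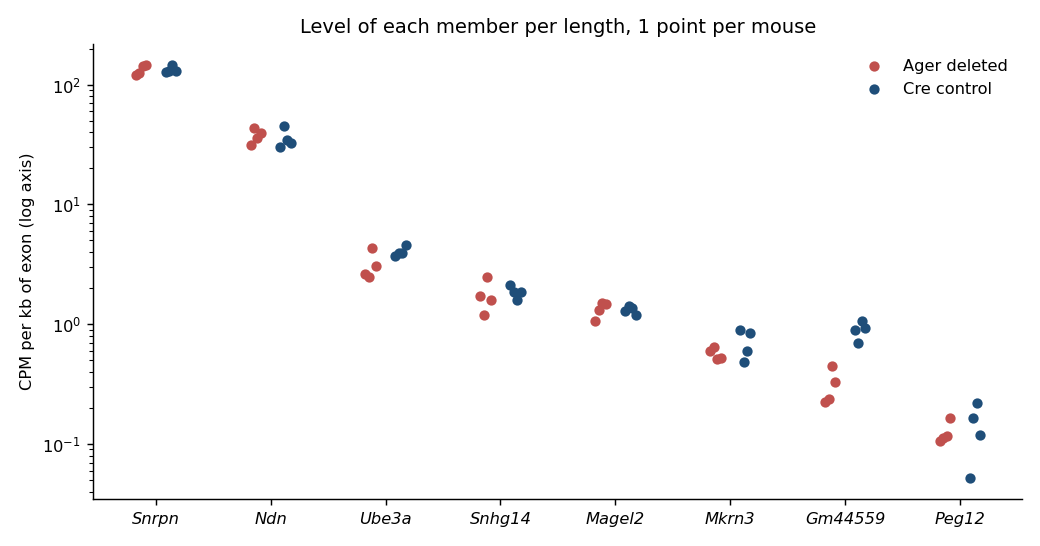
Level of each gene in CPM per kb of exon on a log axis, 1 point per mouse, *Ager*-deleted mice in red and Cre-expressing controls in blue. *Snrpn* lies at 121 to 147 and *Peg12* at 0.0518 to 0.222, and the genotypes are apart only for *Gm44559*.

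*Gm44559* was lower in every *Ager*-deleted mouse than in every control. Its level was 0.229, 0.243, 0.451 and 0.336 CPM in *Ager*-deleted mice and 0.903, 0.710, 1.07 and 0.948 CPM in controls. Mean ± SD was 0.315 ± 0.103 against 0.908 ± 0.150 CPM (n = 4 each), giving a log2 fold change of -1.53 (SE 0.26), or 2.88 times more in controls. As the gene was chosen by these same counts, no test of it is given.

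The values rest on few reads. *Ager*-deleted mice had 9, 9, 16 and 13 counts and controls had 33, 23, 33 and 39 counts. The 95% Poisson interval of the highest *Ager*-deleted count (E5248, 9.15 to 26.0) overlapped that of the lowest control count (E5642, 14.6 to 34.5). These intervals cover counting error only. The log2 fold change was -1.68 without the 2 controls high in muscle markers and -1.50 without the control high in albumin.

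**Figure D2:**
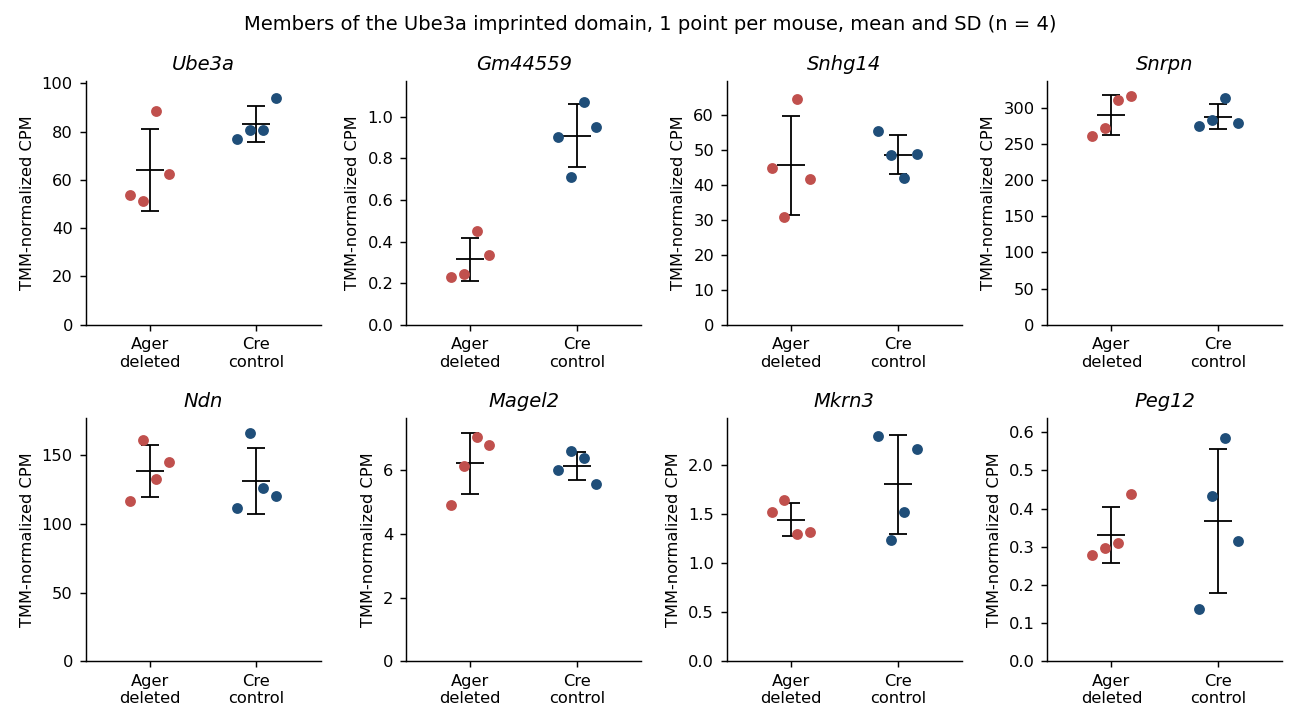
TMM-normalized CPM of the 8 genes, 1 panel per gene, 1 point per mouse with the mean and SD (n = 4) of each genotype. *Gm44559*, chosen by these counts, is the gene whose genotypes do not overlap (0.229 to 0.451 CPM against 0.710 to 1.07 CPM). *Ube3a* of *Ager*-deleted mouse E5248 (88.7 CPM) lies among the controls.

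*Ube3a*, the ligase itself, was at 53.8, 51.3, 88.7 and 62.6 CPM in *Ager*-deleted mice and 77.0, 80.7, 80.7 and 93.9 CPM in controls. Of the *Ager*-deleted mice, 3 lay below all controls and E5248 lay above 3 of the 4 controls. Mean ± SD was 64.1 ± 17.1 against 83.1 ± 7.41 CPM (n = 4 each). The log2 fold change was -0.37 (SE 0.16, 95% interval -0.68 to -0.07), and the exact test of edgeR gave an unadjusted p of 0.0259 and an adjusted p of 1. By that test 829 of 19470 genes (4.26%) had an unadjusted p under 0.05 and 14 (0.0719%) an adjusted p under 0.05. The quasi-likelihood test of edgeR gave an adjusted p of 0.742, and an exact two-sided permutation test of log2(CPM + 1) gave p = 0.114, where 0.0286 is the smallest possible.

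The call on *Ube3a* turned on 1 library. Without E5248 the log2 fold change was -0.57 (edgeR exact test, adjusted p = 0.00167), and 48 of 19709 genes (0.244%) were then called lower. E5248 had 88.7 CPM of *Ube3a*, beside the lowest microglial and highest neuronal marker sums given above. It also had the lowest astrocyte marker sum (12008 CPM). The neuronal markers did not all follow their sum. *Snap25*, *Syt1*, *Map2*, *Slc17a6*, *Slc6a5*, *Gad1* and *Gad2* were highest in E5248, whereas *Rbfox3*, *Tubb3*, *Stmn2*, *Nefl*, *Nefm*, *Nefh* and *Slc32a1* were highest in other mice. The part of cell composition in these values was not tested. In RNA of whole cord, fewer cells of a type and less RNA per cell cannot be told apart.

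*Snhg14*, the host gene of the antisense transcript and of many small nucleolar RNAs (snoRNAs), did not pass the test. It was at 44.8, 30.9, 64.7 and 41.7 CPM in *Ager*-deleted mice and 55.4, 48.4, 41.9 and 48.9 CPM in controls, with the highest and the lowest value both among the *Ager*-deleted mice. The log2 fold change was -0.10 (SE 0.19, 95% interval -0.46 to 0.27, edgeR exact test, adjusted p = 1), and it turned to 0.05 without E5231. The same mouse, E5248, was highest among the *Ager*-deleted mice for *Ube3a* and *Snhg14*, and E5231 was lowest for both. This order is not particular to the pair. E5248 was also highest and E5231 lowest of all mice in the summed CPM of the flanking genes, of imprinted genes of other domains and of neuronal markers. For microglial markers E5231 was highest and E5248 lowest.

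*Snrpn* (chr7:59982495-60140219, minus strand) encodes the spliceosomal protein SmN of brain. It was at 260.4, 271, 311 and 317 CPM in *Ager*-deleted mice and 275, 283, 314 and 279.6 CPM in controls. Its log2 fold change of 0.01 (SE 0.08) had the narrowest interval of the 8 genes, -0.15 to 0.17. *Snurf*, nested in exons shared by *Snrpn* and *Gm38393*, had 0 counts in every mouse, so reads on shared exons may be missing from the *Snrpn* counts. *Ndn* (chr7:62346569-62350262, plus strand), encoding necdin, a MAGE family protein of postmitotic neurons, ranged from 116 to 161 CPM in *Ager*-deleted mice and from 112 to 166 CPM in controls (log2 fold change 0.08, SE 0.13, 95% interval -0.18 to 0.34). *Magel2* (chr7:62377010-62381640, plus strand), a MAGE protein that works with a TRIM27 ligase in endosomal protein recycling, ranged from 4.90 to 7.03 CPM and from 5.57 to 6.58 CPM (log2 fold change 0.02, SE 0.13, 95% interval -0.24 to 0.28). For these 3 genes the genotypes overlapped, and the edgeR exact test gave an adjusted p of 1.

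*Mkrn3* (chr7:62417593-62420139, minus strand), a makorin RING finger gene linked to the timing of puberty, was at 1.52, 1.64, 1.30 and 1.32 CPM in *Ager*-deleted mice and 2.30, 1.24, 1.53 and 2.16 CPM in controls. The controls spread over the whole range of the *Ager*-deleted mice, and the log2 fold change of -0.33 (SE 0.22, 95% interval -0.75 to 0.09) did not pass (edgeR exact test, adjusted p = 1). *Peg12* (chr7:62461871-62464510, minus strand), an intronless relative of the GSK3-binding Frat genes, was near the limit of detection. With 5 to 18 counts per mouse (0.279 to 0.439 CPM in *Ager*-deleted mice and 0.137 to 0.585 CPM in controls), its log2 fold change of -0.12 (SE 0.39, 95% interval -0.89 to 0.64) did not pass, and a change of either sign within that interval was not detectable at this depth. It was 0.03 by limma-voom. Of the 7 genes other than *Gm44559*, 0 were called with all mice by the exact test or the quasi-likelihood test of edgeR, DESeq2 or limma-voom (background shares called 0.0719%, 0.00514%, 0.143% and 0.00514% of genes), and 1, *Ube3a*, had an unadjusted p under 0.05 in the exact test. Their median log2 fold change was -0.10, beside 0.01 over all 19470 genes.

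Other transcript models within *Ube3a* put the *Gm44559* values in context. *Gm44562*, antisense in the same gene and 1347 bp long (chr7:59258855-59260201), was at 0.46, 0.49, 1.44 and 0.93 CPM in *Ager*-deleted mice and 0.77, 0.83, 1.01 and 1.12 CPM in controls. Its log2 fold change of -0.18 (SE 0.35) came with both its lowest and its highest value among *Ager*-deleted animals. *Gm44560*, antisense and overlapping *Ube3a* exons by 2025 bp, had -0.62 (SE 0.32), and *Gm44830*, on the *Ube3a* strand, had -0.34 (SE 0.31), both overlapping between genotypes (edgeR exact test, adjusted p = 1 for each).

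At the promoter end, the antisense model *9330162G02Rik* (chr7:59223847-59254788) covers the first exons of *Ube3a*. It was at 12.2, 9.60, 15.1 and 12.5 CPM in *Ager*-deleted mice and 16.9, 18.1, 15.4 and 15.8 CPM in controls. All 4 controls lay above all 4 *Ager*-deleted mice, a pattern that 372 of the 19470 genes (1.91%) had. The log2 fold change of -0.42 (SE 0.13) did not pass (edgeR exact test, unadjusted p = 0.0064, adjusted p = 0.626).

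**Figure D3:**
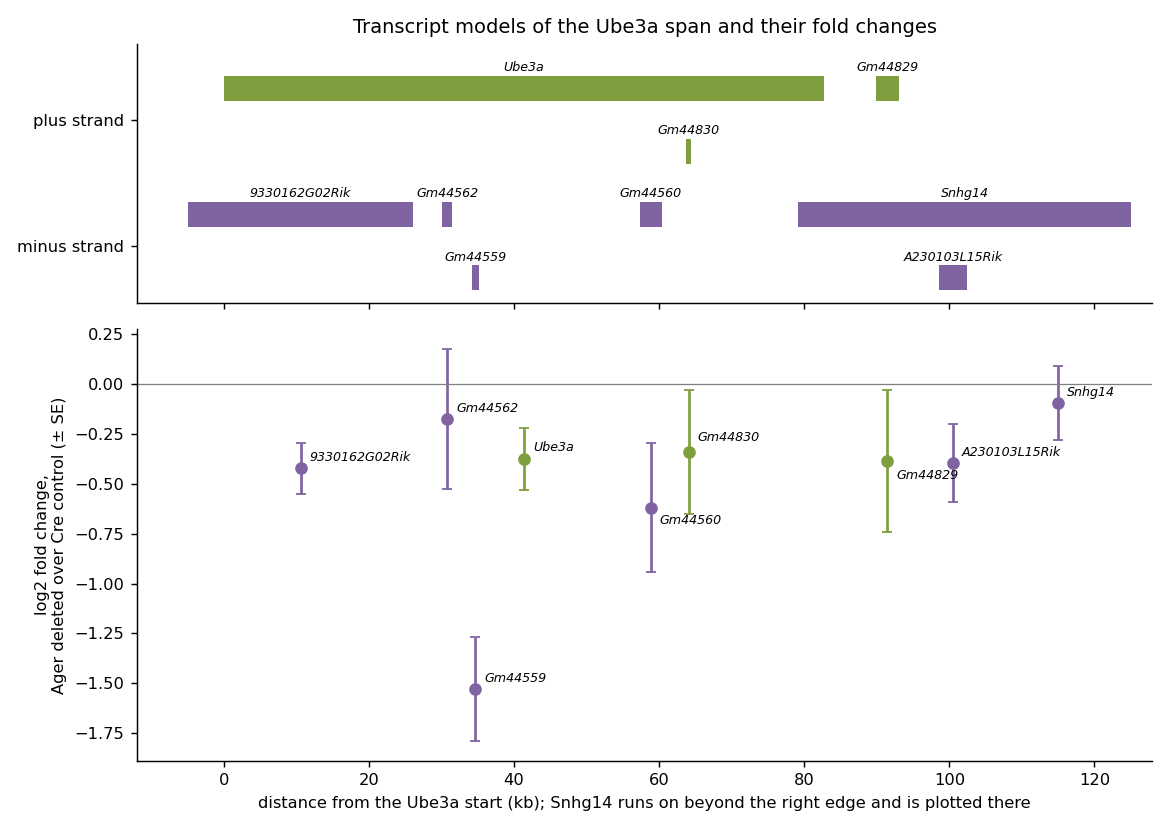
Upper panel, transcript models by distance from the *Ube3a* start in kb, plus strand green and minus strand purple. Lower panel, log2 fold change of each with its SE, where *Gm44559* is at -1.53 and the other models lie between -0.62 and -0.10.

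The strand used in the counting is not given in the sources used here. In the count table, 21 of 21 single-exon genes lying inside opposite-strand exons of genes with at least 50 CPM, and 6 of 6 inside same-strand exons, had 0 counts in all 8 mice. Opposite-strand genes were thus as empty as same-strand ones, and the strand setting itself was not tested. The word antisense here names the annotated strand of a model. If strand was not used in the counting, *Ube3a* and *Snhg14* counts would leave out the exons that they share. Reads from an antisense RNA and from unspliced *Ube3a* RNA could then not be told apart on *Gm44559* or *Gm44562*. The same holds for the intronic part of *9330162G02Rik*.

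Counts were also set against *Ube3a* of the same mouse. *Gm44559* amounted to 0.425%, 0.473%, 0.509% and 0.537% of *Ube3a* counts in *Ager*-deleted mice and 1.17%, 0.880%, 1.33% and 1.01% in controls. The genotypes did not overlap on this scale either. Against *Gm44562*, *Gm44559* counts were 31.4% to 50% in *Ager*-deleted mice and 84.8% to 118% in controls, again without overlap. As *Gm44559* was chosen for its counts, these ratios carry no test and their lack of overlap is no result.

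The 7 ratios without *Gm44559* were tested, and the genotypes overlapped in each. They are no contrast to the ratios of *Gm44559*, which was chosen for its difference. *Snhg14* counts were 83.3%, 60.3%, 72.9% and 66.7% of *Ube3a* counts in *Ager*-deleted mice and 72.0%, 60.0%, 51.9% and 52.1% in controls (exact two-sided permutation test, p = 0.114, adjusted over 7 ratios 0.400). *Ube3a* was 18.9% to 28.5% of *Snrpn* counts in *Ager*-deleted mice and 25.7% to 33.6% in controls (exact two-sided permutation test, p = 0.114, adjusted 0.400). *Gm44562* was 0.849% to 1.62% and 0.995% to 1.25% of *Ube3a* counts, and the adjusted p of the other 5 ratios was 0.886. *Snrpn* was 411% to 582% of the counts of *Snrpb*, its near copy and widely expressed, in *Ager*-deleted mice and 459.9% to 487% in controls, and the shared sequence of the 2 genes leaves this ratio uncertain.

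**Figure D4:**
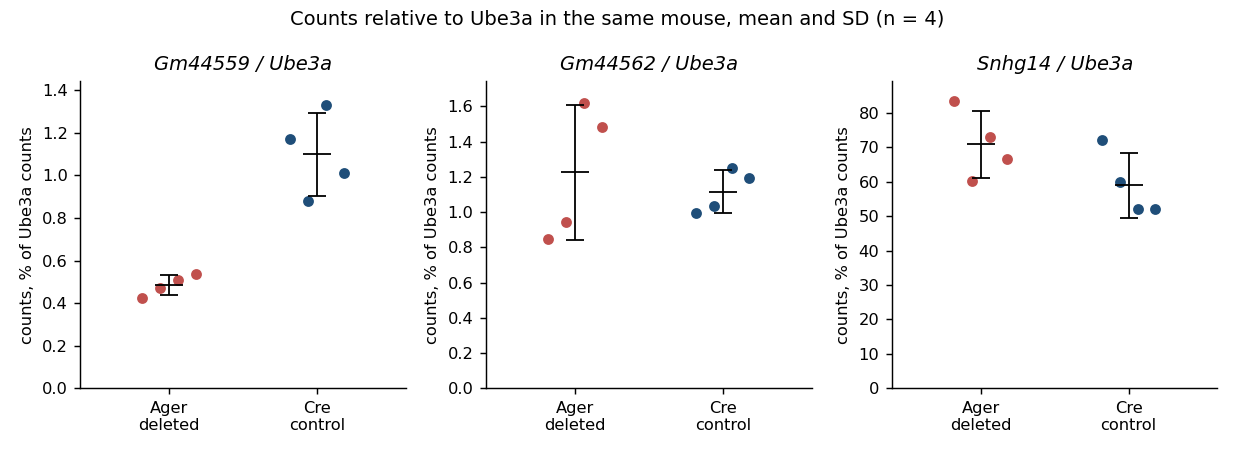
Counts of *Gm44559*, *Gm44562* and *Snhg14* as a percentage of *Ube3a* counts in the same mouse, 1 point per mouse with mean and SD (n = 4). *Gm44559*, chosen by these counts, lies at 0.425% to 0.537% in *Ager*-deleted mice and 0.880% to 1.33% in controls. The other ratios overlap.

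Along the domain, the other annotated genes were counted too. Between the outer ends of *Ube3a* and *Peg12* (chr7:59228750-62464510, 3236 kb), 258 further genes were in the count table, of which 176 had 0 counts in all mice and 19 were tested, and 0 of the 19 were called by the exact test of edgeR (0 at an unadjusted p under 0.05, 0 by DESeq2). Over all genes the exact test called 0.0719%, 4.26% had an unadjusted p under 0.05 in it, and DESeq2 called 0.143%. A count of 0 calls among 19 is thus near the background and no result about these genes. The median log2 fold change of the 19 was -0.10 and their range -0.62 to 0.32. The library selected polyadenylated RNA, and of 210 snoRNA genes in the domain only *Gm24966* had enough counts to be tested, with a mean ± SD of 1.23 ± 0.391 CPM in *Ager*-deleted mice against 0.983 ± 0.106 CPM in controls (n = 4 each). *Gm38393*, a model that shares exons with *Snrpn* and *Snhg14*, averaged 9.10 ± 2.60 against 10.8 ± 1.27 CPM (mean ± SD, n = 4 each), and its log2 fold change was -0.24 (SE 0.18).

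Genes flanking the domain, expressed from both copies, were counted in the same way. Of 10 listed, *Oca2* was too low to test, and 0 of the other 9 were called by the exact test of edgeR (0 at an unadjusted p under 0.05, 0 by DESeq2), with a median log2 fold change of 0.01. Over all genes these shares were 0.0719%, 4.26% and 0.143%, so 0 calls among 9 is near the background. *Nipa2*, a magnesium transporter, had the lowest fold change at -0.18 (SE 0.06), with an unadjusted p of 0.0671 by the edgeR exact test. Its genotypes did not overlap (18.4 to 19.5 CPM against 20.5 to 22.4 CPM). The same pattern, lower in *Ager*-deleted mice, was seen in 372 of 19470 genes (1.91%). *Atp10a*, a phospholipid flippase and the listed flanking gene nearest to *Ube3a*, was at 0.06 (SE 0.14). The GABA receptor subunit genes *Gabra5* and *Gabrg3* were at -0.14 (SE 0.09) and 0.04 (SE 0.10), and *Herc2*, a ligase that binds the UBE3A protein, was at 0.06 (SE 0.08).

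**Figure D5:**
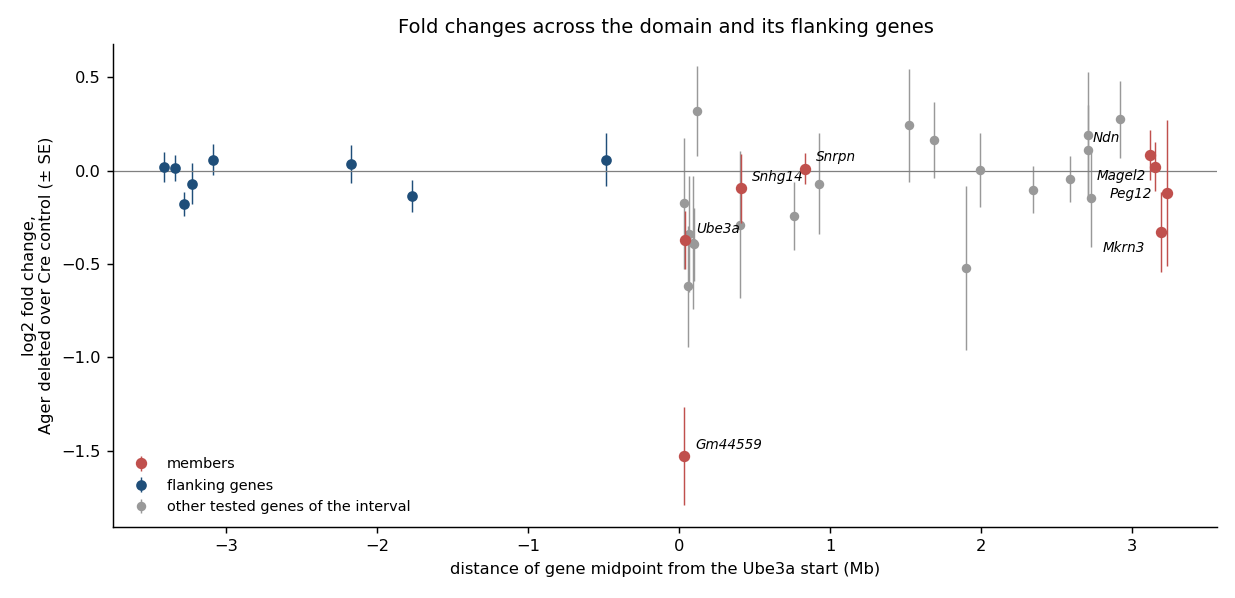
Log2 fold change with its SE of the 8 genes (red), other tested genes of the domain (grey) and flanking genes (blue) by distance of the gene midpoint from the *Ube3a* start in Mb. The flanking genes lie between -0.18 and 0.06, and *Gm44559* at -1.53 is the lowest point.

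Genes that work with the members' products were counted from lists written by hand. Of 20 conjugating enzymes, partners and substrates of UBE3A, 0 were called by the exact test of edgeR (1 at an unadjusted p under 0.05, 0 by DESeq2), with a median log2 fold change of -0.04. The shares over all genes were 0.0719%, 4.26% and 0.143%, so 1 of 20 is near the background and no result about these genes. *Ube2d3*, a ubiquitin-conjugating enzyme, was at 129, 130.4, 182 and 142 CPM in *Ager*-deleted mice and 164, 192, 174 and 203 CPM in controls, with E5248 again among the controls (log2 fold change -0.33, SE 0.11, adjusted p = 0.744 by the edgeR exact test). Without E5248 it was called lower, as was *Ube3a*, and so were 48 of 19709 genes (0.244%). *Anxa1* was at -0.76 (SE 0.38) and *Ptpa*, a phosphatase activator, at 0.14 (SE 0.05).

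The lists tied to the paternally expressed genes were counted in the same way. Among 13 MAGE proteins and ligase partners, which serve *Ndn* and *Magel2*, and among 20 Sm core and snRNP assembly genes, which serve *Snrpn*, 0 were called by the exact test of edgeR (0 at an unadjusted p under 0.05 and 0 by DESeq2 in each). The medians were 0.03 and 0.05, and the named genes of smallest p, *Trim28*, *Magee1* and *Maged2* and *Gemin5*, *Prmt5* and *Snrpd1*, lay between -0.14 and 0.17. Of 11 nuclear long noncoding RNAs, 0 were called by the exact test of edgeR (1 at an unadjusted p under 0.05, 1 by DESeq2, *Malat1* in both). The background for each of these lists is the share over all genes. It was 0.0719% called by the exact test, 4.26% at an unadjusted p under 0.05 and 0.143% called by DESeq2. *Malat1* had a log2 fold change of -0.63 (SE 0.16), *Kcnq1ot1*, the antisense RNA of another imprinted domain, -0.33 (SE 0.16), and *Mirg* 0.24 (SE 0.23).

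Imprinted genes elsewhere in the genome were set beside the domain. Of 44 listed, 42 were tested and 0 called by the exact test of edgeR (4 at an unadjusted p under 0.05, 0 by DESeq2), with a median log2 fold change of 0.01. Over all genes the exact test called 0.0719%, 4.26% had an unadjusted p under 0.05 in it, and DESeq2 called 0.143%. *Slc38a4*, an amino acid transporter, was at 0.0508, 0.270, 0.310 and 0.181 CPM in *Ager*-deleted mice and 0.574, 1.79, 0.325 and 8.29 CPM in controls, highest in the control with 452 CPM of *Alb* (log2 fold change -3.74, SE 1.01, adjusted p = 0.0684 by the edgeR exact test). *H19*, a long noncoding RNA, was at 1.52, 3.69, 3.08 and 2.53 CPM in *Ager*-deleted mice and 26.6, 16.8, 2.11 and 5.20 CPM in controls, highest in the 2 controls with the most skeletal muscle marker RNA (log2 fold change -2.23, SE 0.65, adjusted p = 0.153 by the edgeR exact test). The part of liver and muscle RNA in these values was not tested. *Plagl1*, a zinc finger gene, was at -0.29 (SE 0.11).

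TEC models as a class were also counted, since *Gm44559* belongs to it. The median log2 fold change of 572 tested single-exon TEC models was -0.08. *Gm44559* itself was chosen for its difference, so its place among them is no result and it is left out of the count of calls. None of the rest was called by the exact test of edgeR, where 0.0719% of all genes were. Their summed level was 774 to 1036 CPM in *Ager*-deleted mice, with E5248 the highest and E5231 the lowest of the 8, and 919 to 1029 CPM in controls, so the class as a whole did not separate the genotypes.

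The genes that varied across mice most like *Gm44559* and *Ube3a* were listed among those with a mean of at least 1 CPM, by Pearson's r of log2(CPM + 1) over the 8 mice, as a description. For *Gm44559* these were *Uvssa* (r = 0.972), *Gm38253* (0.955), *Zfp119a* (0.952), *Ddx3x* (0.949) and *Tmem60* (0.947), out of 16081 candidates. As *Gm44559* was chosen for its genotype difference, genes like it over the 8 mice differ by genotype through the choice, for example *Ddx3x*, an RNA helicase gene, at 249 to 280.3 CPM against 308 to 353 CPM. Within genotypes, after subtraction of each genotype's mean, their r with *Gm44559* was 0.61 to 0.83. These values are not free of the choice either, since the genes were picked by r over the same mice. *Ube3a* itself had r = 0.79 with *Gm44559*, and *Snhg14* had 0.36. For *Ube3a* the list was *Cept1* (r = 0.996), *Yme1l1* (0.993), *Lrch2* (0.992), *Fut9* (0.990) and *Smim10l1* (0.988), out of 16080. In these 5, picked by r over the same mice, the level in E5248 lay within or above the range of the controls. For example, *Yme1l1*, a mitochondrial protease gene, was at 66.3, 63.5, 88.0 and 72.7 CPM in *Ager*-deleted mice and 82.4 to 89.0 CPM in controls. Among the 8 genes, r with *Ube3a* within genotypes was 0.77 for *Snhg14*, 0.68 for *Gm44559*, 0.57 for *Snrpn*, 0.49 for *Magel2*, 0.08 for *Peg12*, -0.14 for *Ndn* and -0.19 for *Mkrn3*. All points share the libraries and their depth.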

How the data were processed

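RNA was from the lumbar spinal cord of 8 mice, 4 per genotype as labelled. The members and gene lists were chosen with earlier results of these data known. Libraries were stranded and selected polyadenylated RNA. The authors trimmed reads (Trimmomatic 0.36 per the submitters' processing notes), aligned them to mm10 with STAR 2.7.3a, and deposited raw counts per gene from featureCounts (Subread 1.6.3, GENCODE M25). The authors also deposited log2 TMM-normalized CPM, which were recomputed from the counts to within 4.78e-06 and otherwise unused.

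Counts were filtered with filterByExpr (minimum 10), normalized by TMM and tested with the exact test of edgeR 4.0.16 under R 4.3.3 (dispersions from estimateDisp without a design), with Benjamini-Hochberg adjustment over 19470 genes and a threshold of 0.05. SEs and 95% intervals are from edgeR's quasi-likelihood fit. Permutation tests and likeness used log2(CPM + 1), and ratios used counts. Alternatives were the quasi-likelihood test, DESeq2 1.42.0, limma-voom (limma 3.58.1), tagwise dispersions, other scalings and filters, each mouse left out, and controls E5386 and E5642 left out together. The quasi-likelihood test without these 2 controls was added after the data were seen. Scripts were tested on simulated data. Named genes were the members, flanking and tested interval genes, called genes of each list or else the 3 of smallest p, 5 genes most like *Gm44559* and *Ube3a*, *Ager* and *Snrpb*. Other genes (*Alb*, the TEC neighbours outside the interval, *9330162G02Rik* included) were chosen after their values were seen. Positions are from GENCODE M21 on GRCm38, matched by symbol (19078 of 19470 tested genes), an earlier release than that counted. The values of 1 flanking gene are not reported here.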

Additional observations from a re-analysis of the deposited data

How the results depend on the processing

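Depth limits *Gm44559* (9 to 39 counts) and *Peg12* (5 to 18 counts), and *Mkrn3* was low as well (40 to 89 counts). The other members had at least 193 counts per mouse. The parts of counting error and of spread between mice were not computed. No paired analysis was possible because the labels carry mouse IDs and no shared replicate numbers. The genes called, 14 in all, numbered 1 by edgeR's quasi-likelihood test, 29 by DESeq2, 1 by limma-voom, 78 with common and tagwise dispersions, 3 among genes with a mean of at least 1 CPM, 67 without controls E5386 and E5642, and 1 by the quasi-likelihood test without them. With each mouse left out they ranged from 3 to 98. The count was 3 without E5231, 53 without E5248, 8 without E5568, 72 without E5386, 8 without E5642, 98 without E6578 and 89 without E6732. *Gm44559* ranged from -1.68 to -1.51 in log2 fold change over the alternatives and from -1.74 to -1.40 with each mouse left out, but is too low for the filter at a mean of 1 CPM, as is *Peg12*. *Ube3a* ranged from -0.45 to -0.35 and, with each mouse left out, from -0.57 to -0.28, and was called (1 of the 7 other genes, range 0 to 1) without E5248 only. *Peg12* turned to 0.028 by limma-voom, and *Snrpn* to -0.041 without controls E5386 and E5642 in both tests. With each mouse left out, *Snhg14* ranged from -0.31 to 0.051, *Snrpn* from -0.035 to 0.058, *Magel2* from -0.045 to 0.12 and *Peg12* from -0.40 to 0.18, and *Ndn* and *Mkrn3* kept their sign. Imprinted genes of other domains had 2 calls with tagwise dispersions (*H19* and *Slc38a4*), 1 without controls E5386 and E5642 (*Slc38a4*) and 0 to 2 with each mouse left out (1 without E5386, 2 without E6578, 1 without E6732). Nuclear long noncoding RNAs had 1 call, *Malat1*, by DESeq2 and with tagwise dispersions, and 0 to 1 with each mouse left out (1 without E6732). UBE3A partners had 0 to 1 (*Ube2d3*, without E5248). For the lists of flanking genes, other domain genes, imprinted genes elsewhere, UBE3A partners, MAGE and snRNP genes and nuclear long noncoding RNAs, the other alternatives gave 0 calls. The marker lists and the TEC models were not run under the alternatives. The cause of these changes was not tested.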
